A study of Mus musculus with 13 samples.

Results

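The genes described here encode secreted products and an uptake receptor of visceral endoderm, the epithelium that surrounds the early mouse embryo: Afp, Apoa1, Apoe, Ttr and Lrp2. All probes whose annotation gave 1 symbol, and that symbol was among these 5 genes, were taken. They were 5 of 9669 genes named by a single symbol and 8 of the 20205 probes, with 2 probes each for Afp, Ttr and Lrp2 and 1 each for Apoa1 and Apoe.

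Visceral endoderm does the work of a liver before the embryo has one. It makes carrier proteins and apolipoproteins, exports them with lipid to the embryo, and takes up maternal protein from its surroundings through large endocytic receptors at its surface. In cultures of mouse embryonic stem cells the same genes are commonly used as markers of cells that have turned into primitive or visceral endoderm.

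Total RNA of mouse origin from a source called NT1 was hybridised together with RNA from a source called TBV on 13 two-colour arrays. NT1 is given in the series title as homozygous mutant for Sall4, a zinc finger transcription factor gene active in pluripotent cells. No genotype is stated for TBV, and the labels name no cell type, treatment, time or animal age for either source. The arrays used NT1 at passage 14 with TBV at passage 13 (NT1p14 with TBVp13, 5 arrays), both at passage 12 (NT1p12 with TBVp12, 4 arrays), NT1 1 with TBV2 (2 arrays, no passage given), and NT1p12 with TBVp13 (2 arrays). The labels do not say whether these preparations came from separate cultures or clones. NT1 carried the Cy5 dye on 7 arrays and TBV carried it on 6.

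Every value below is a log2 ratio of NT1 over TBV, so a positive value means more signal in NT1. This direction rests on taking Cy5 as the numerator of the deposited ratios, a point that neither the labels nor the table settles. A ratio does not tell how strongly a gene was expressed, so whether the cultures held visceral endoderm at all could not be checked. In such bulk RNA, fewer cells of one type and less RNA per cell cannot be told apart. Between 14314 and 18381 probes had a value on each array. The Sall4 probe averaged -0.28 ± 0.33 (SD, n = 3 source pairs) and lay below 0 on 10 of 13 arrays. Its position relative to the mutation is unknown, and it therefore tells nothing about the labels. NT1p14 with TBVp13 and NT1p12 with TBVp12 moved against each other over all tested probes, with a correlation of -0.50 across probes.

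The start-site windows of Afp and Apoa1 are printed first. Apoa1 was below 0 and Afp probe 19579 above 0 in NT1p14 with TBVp13 and in NT1 1 with TBV2. In NT1p12 with TBVp12 the order was turned, at 0.14 for Apoa1 and -0.04 for Afp probe 19579. The other Afp probe lay on the same side as Apoa1 in NT1p14 with TBVp13 and in NT1p12 with TBVp12. Both windows held matches to motifs of endoderm regulators. The windows are from RefSeq, build GRCm38.p6, plus strand, with 250 bases before and 50 after the annotated start. Afp lies on chr5:90490464-90490763 and Apoa1 on chr9:46228380-46228679. Capitals mark the letters TGTTTGC, a forkhead motif bound by FOXA factors, and GTTAA, one arm of the palindrome bound by HNF1 factors, on either strand.
Afp: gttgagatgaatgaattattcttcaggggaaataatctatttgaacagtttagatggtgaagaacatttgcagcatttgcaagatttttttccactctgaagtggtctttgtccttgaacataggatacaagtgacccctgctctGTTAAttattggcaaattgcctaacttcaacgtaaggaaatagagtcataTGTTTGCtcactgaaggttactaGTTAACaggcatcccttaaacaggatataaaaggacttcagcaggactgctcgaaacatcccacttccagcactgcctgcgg
Apoa1: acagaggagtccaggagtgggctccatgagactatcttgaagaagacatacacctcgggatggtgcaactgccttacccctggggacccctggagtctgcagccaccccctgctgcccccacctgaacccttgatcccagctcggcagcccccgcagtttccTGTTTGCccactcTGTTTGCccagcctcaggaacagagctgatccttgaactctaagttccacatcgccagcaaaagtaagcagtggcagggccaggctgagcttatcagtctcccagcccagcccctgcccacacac

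The Afp window held 1 match to TGTTTGC, beginning at position -55 from the start, and 3 matches to GTTAA. Of these GTTAA matches 1 began at position -105, and the other 2 overlapped on opposite strands and are seen above as 1 run of capitals. The Apoa1 window held 2 matches to TGTTTGC, at positions -88 and -75, and 0 to GTTAA. Among all 32851 windows in the table, 5.07% held TGTTTGC, 24.2% held GTTAA, 1.41% held both, and 0.231% held TGTTTGC at least 2 times. The Lrp2 window held neither set of letters. Apoe had 3 windows, and 1 of them held 2 matches to GTTAA. A match is only a description of these letters and does not show that a factor binds.

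The main comparison asked whether these genes differed between NT1 and TBV. None of the members passed. Afp averaged above 0, Apoa1 and Apoe averaged below 0, and Ttr and Lrp2 lay closer to 0. For each of the tested probes the average was smaller in size than the SD among the 3 independent source pairs. Of the 8 probes, 7 had a value in all 3 pairs and were tested, and 0 of these 7 passed an adjusted p of 0.05 in limma, against 0% of all 15973 probes tested. At an unadjusted p under 0.05 there were again 0 of 7, against 1.03% of all probes. That share is 164 probes, fewer than the 799 that evenly spread p-values would give, so 0 of 7 tells little. With the same sign in all 3 pairs there were also 0 of 7, against 9.05% of all probes above 0 and 5.33% below 0 in all 3. With the probes of a gene averaged, 1 of the 5 genes, Afp, was above 0 in all 3 pairs, against 8.75% of all genes, and 0 were below. Its average was then 0.21 ± 0.17 (SD, n = 3), and its value in NT1p12 with TBVp12 was 0.0039. In NT1p14 with TBVp13 the Afp value was probe 19579 alone. Probe 19676 averaged -0.46 there with NT1 in Cy5 but had no value with TBV in Cy5, so it did not enter. The sign of Afp in that pair therefore rests on 1 probe. The median of the 7 averages was -0.06, and that of all tested probes was -0.00054. A sign permutation over 3 pairs cannot give a two-sided p below 0.25, so the design allowed no exact test at 0.05.

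**Figure D1:**
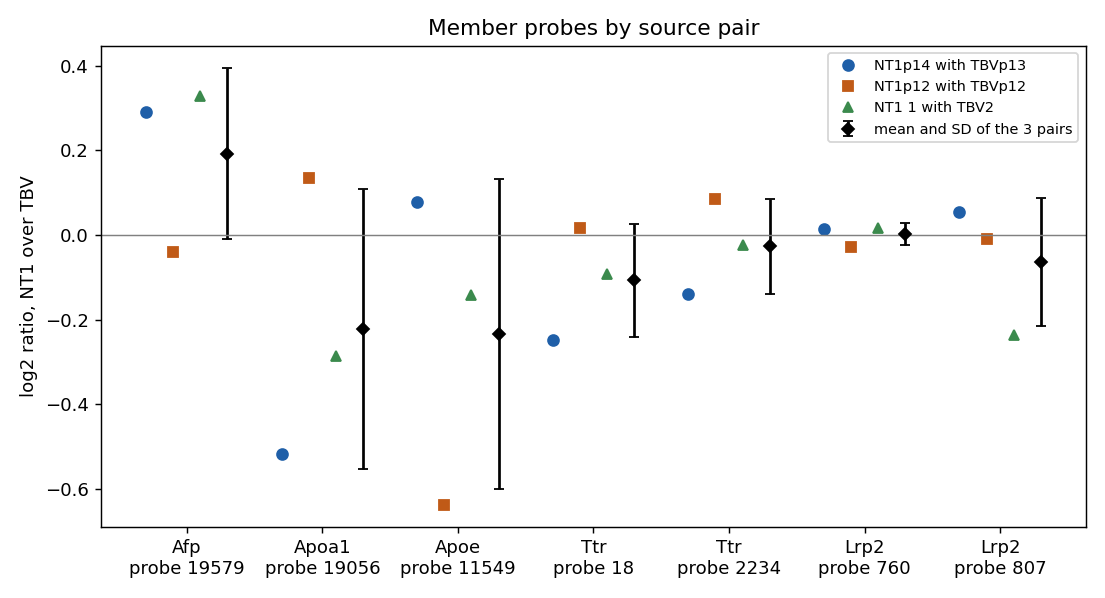
Log2 ratio of NT1 over TBV for the 7 tested member probes. Coloured symbols are the 3 independent source pairs, each averaged over its arrays with dye effects cancelled, and black diamonds with bars are their mean and SD. The Lrp2 probe 760 stays between -0.03 and 0.02, while the pairs of Apoa1 and Apoe lie on both sides of 0.

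Afp encodes alpha-fetoprotein, the albumin-like carrier protein of the fetus and yolk sac. Its probe 19579 read 0.25, 0.29, 0.01, 0.44 and 0.49 on the 5 arrays of NT1p14 with TBVp13, and 0.22, -0.14, -0.15 and -0.10 on the 4 arrays of NT1p12 with TBVp12. It read 0.48 and 0.18 in NT1 1 with TBV2, and -0.02 and -0.15 in NT1p12 with TBVp13. The probe was thus above 0 on every array of NT1p14 with TBVp13 and of NT1 1 with TBV2, and below 0 on all arrays but 1 of the others. The 3 independent pairs gave 0.29, -0.04 and 0.33, a mean of 0.19 ± 0.20 (SD, n = 3), which is 1.14-fold. Without NT1p12 with TBVp12 it was 0.31, and without NT1 1 with TBV2 it was 0.12. The 95% interval of limma ran from -0.16 to 0.55 (limma, adjusted p = 1.00).

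The other Afp probe, 19676, had a value on 8 arrays and did not repeat this. It read -0.59 and -0.34 on the arrays of NT1p14 with TBVp13 where it was measured, on which probe 19579 read 0.25 and 0.44. In NT1 1 with TBV2 both probes were positive, with 0.34 and 0.29 for probe 19676. In NT1p12 with TBVp12 it read -0.03, -0.06 and 0.14. The probes of Afp therefore disagree in 1 of the pairs, and the Afp ratio there is uncertain. Probe 19676 had no value with TBV in Cy5 in that pair and could not enter the test.

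Ttr encodes transthyretin, which carries thyroid hormone and, bound to retinol-binding protein, retinol. Its probe 18 read 0.11, 0.06, -0.33, -0.27 and -0.60 in NT1p14 with TBVp13, and 0.29, 0.08, -0.35 and 0.05 in NT1p12 with TBVp12. It read -0.18 and -0.0014 in NT1 1 with TBV2, and 0.13 and -0.17 in NT1p12 with TBVp13. No pair was wholly on one side except NT1 1 with TBV2. The mean over the 3 independent pairs was -0.11 ± 0.13 (SD, n = 3). The 95% interval ran from -0.44 to 0.22 (limma, adjusted p = 1.00).

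The second Ttr probe, 2234, ranged from -0.76 to 0.26 over the 13 arrays with a median of 0.01. It had 7 values above 0 and 6 below. Its lowest value, -0.76, came from array 3 of NT1p14 with TBVp13, where the next lowest was -0.19. The mean over pairs was -0.03 ± 0.11 (SD, n = 3). Probes 18 and 2234 were at -0.25 and -0.14 in NT1p14 with TBVp13, and at 0.02 and 0.08 in NT1p12 with TBVp12. For probe 2234 the difference between these pairs was -0.21 in the fit on their arrays, and -0.0042 without array 3 of NT1p14 with TBVp13. Neither Ttr probe passed in that fit.

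Apoa1 encodes apolipoprotein A-I, the main protein of high-density lipoprotein. On the 5 arrays of NT1p14 with TBVp13 it read 0.02, -0.25, -0.60, -0.47 and -1. On the 4 arrays of NT1p12 with TBVp12 it read 0.54, 0.50, -0.73 and 0.23, and in NT1 1 with TBV2 it read -0.11 and -0.46. NT1p12 with TBVp13 gave 0 and -1. The gene was lower in NT1 on 8 of 13 arrays and higher on 4, and NT1p12 with TBVp12 held 3 of these 4. The pair values were -0.52, 0.14 and -0.29, a mean of -0.22 ± 0.33 (SD, n = 3), which is 0.857-fold. The mean was -0.08 without NT1p14 with TBVp13 and -0.40 without NT1p12 with TBVp12. The 95% interval ran from -0.65 to 0.20 (limma, adjusted p = 1.00). Of the 97 member values on the arrays 3 were whole numbers, and all 3 were of Apoa1. Why part of the deposited values are whole numbers is not stated and was not tested.

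Apoa1 was also the member whose ratio depended most on the dyes. In each of the 3 pairs it read higher with NT1 in Cy5 than with TBV in Cy5: NT1p14 with TBVp13 gave -0.24 against -0.80, NT1p12 with TBVp12 gave 0.52 against -0.25, and NT1 1 with TBV2 gave -0.11 against -0.46. The part common to both orientations, Cy5 over Cy3, was 0.28 ± 0.10 (SD, n = 3) and did not pass (limma, adjusted p = 0.14). At an unadjusted p under 0.05 it was the only one of the 7 tested probes, against 24.2% of all probes. With arrays of NT1 in Cy5 alone the Apoa1 average was 0.06, on the other side of 0, and with TBV in Cy5 alone it was -0.50.

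**Figure D2:**
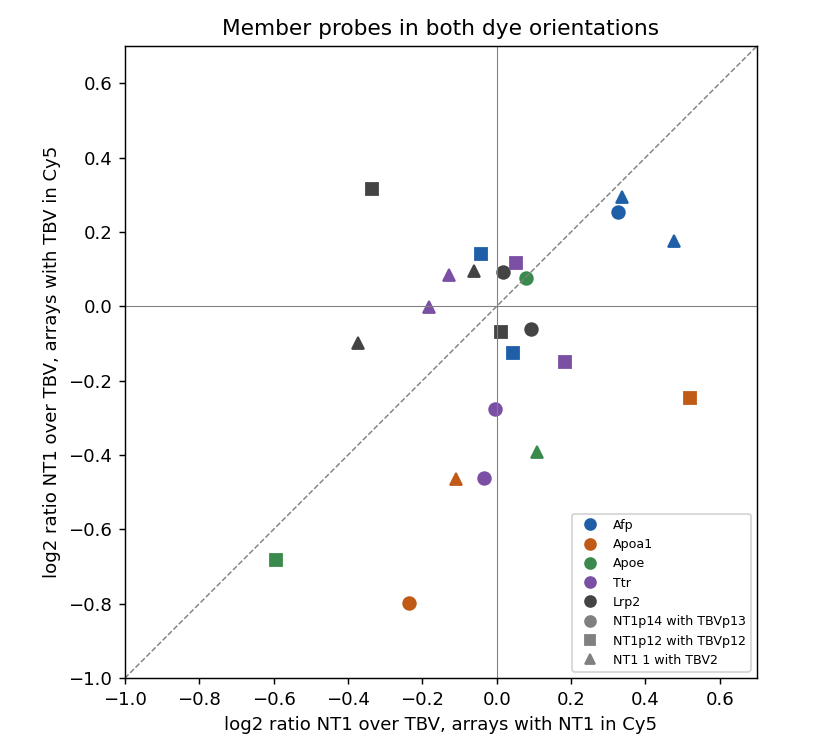
Log2 ratio of NT1 over TBV for each member probe and source pair, from arrays with NT1 in Cy5 (horizontal axis) and from arrays with TBV in Cy5 (vertical axis). Colours are genes, symbols are source pairs, and points on the dashed line read the same in both orientations. Apoa1 lies below the line in all 3 pairs, and Apoe in NT1p12 with TBVp12 lies near it at -0.59 and -0.68.

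Apoe encodes apolipoprotein E, which lets lipoproteins bind receptors of the low-density lipoprotein receptor family. It read 0.02, -0.20, -0.42, 0.41 and 0.57 in NT1p14 with TBVp13, and -0.63, -0.56, -0.52 and -0.84 in NT1p12 with TBVp12. It read 0.11 and -0.39 in NT1 1 with TBV2, and its only value in NT1p12 with TBVp13 was -0.05. All 4 arrays of NT1p12 with TBVp12 lay below every array of NT1p14 with TBVp13. The pair values were 0.08, -0.64 and -0.14, a mean of -0.23 ± 0.37 (SD, n = 3), which is 0.850-fold. The 95% interval ran from -0.68 to 0.21 (limma, adjusted p = 1.00). Without NT1p12 with TBVp12 the mean of the other pairs was -0.03, so the average rested on that pair.

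Lrp2 encodes megalin, the endocytic receptor through which visceral endoderm and kidney tubule take up proteins, among them carriers of vitamins and apolipoproteins. Probe 760 lay between -0.19 and 0.16 on all 13 arrays, with 7 values above 0 and 6 below. Its pair values were 0.01, -0.03 and 0.02, a mean of 0.0013 ± 0.026 (SD, n = 3). The 95% interval, whose width borrows from the spread of all probes, ran from -0.31 to 0.31. Over single arrays its SD was 0.110, and 0.109% of 13790 probes with at least 12 values had a smaller one. The median SD of those probes was 0.376.

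The second Lrp2 probe, 807, spread more widely, from -0.46 to 0.57 on 12 arrays. In NT1p12 with TBVp12 it read -0.21 and -0.46 with NT1 in Cy5, but 0.57 and 0.06 with TBV in Cy5. Its pair values were 0.05, -0.01 and -0.24, a mean of -0.06 ± 0.15 (SD, n = 3). Both probes of Lrp2 averaged near 0, and the difference between them was in how far the arrays scattered.

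**Figure D3:**
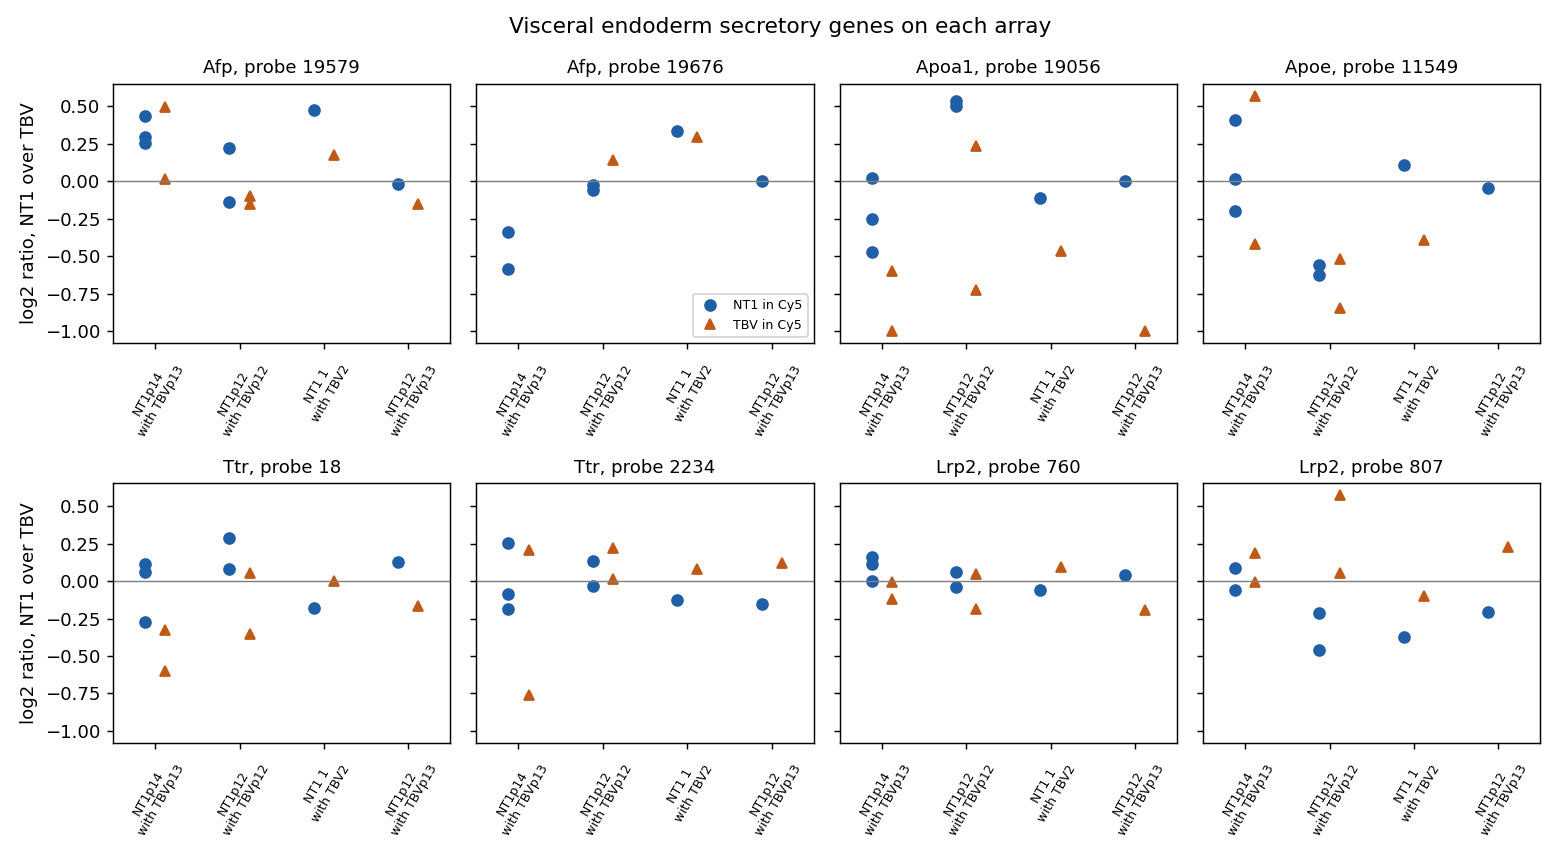
Log2 ratio of NT1 over TBV on every array, 1 panel per member probe, by source pair. Circles are arrays with NT1 in Cy5 and triangles are arrays with TBV in Cy5. The 4 arrays of Apoe in NT1p12 with TBVp12 lie between -0.84 and -0.52, and all values of Lrp2 probe 760 lie within 0.20 of 0.

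A further comparison set the pairs with most arrays against each other. Arrays of a pair share their source names, and nothing says that they came from separate cultures, so the test compares these RNA pairs and not the passages as such. The log2 ratio of Apoe in NT1p14 with TBVp13 minus that in NT1p12 with TBVp12 was 0.71, and the same difference was -0.66 for Apoa1, but neither passed (limma on 9 arrays with a dye term, adjusted p = 0.074 for Apoe and 0.081 for Apoa1). Afp probe 19579 stood at 0.33 and missed as well (limma, adjusted p = 0.15). In all, 0 of 8 member probes passed, against 2.95% of 16921 probes higher and 1.99% lower. These calls rest on single arrays: over all probes 836 passed, and leaving out 1 array at a time gave between 0 and 2672. The count was 0 without array 2, 3 or 5 of NT1p14 with TBVp13 or array 1, 2 or 4 of NT1p12 with TBVp12. It was 14 without array 4 of NT1p14 with TBVp13 and 2672 without array 1. Apoe passed on probes with a value on all 9 arrays (limma, adjusted p = 0.049), and over the alternatives its adjusted p in limma ran up to 0.18. Apoa1 passed without array 3 of NT1p12 with TBVp12 (limma, adjusted p = 0.048), and its adjusted p ran up to 0.22, the value without a dye term. With arrays scaled to a common spread, the difference was 0.47 for Apoe (limma, adjusted p = 0.069) and -0.36 for Apoa1 (limma, adjusted p = 0.20).

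The arrays of these pairs did not overlap for 2 of the 8 probes, against 8.56% of all probes higher and 6.67% lower in NT1p14 with TBVp13. These were Apoe, higher there, and Afp probe 19676, lower there with 2 arrays against 3. The two-sided exact permutation test, with 126 ways to split 9 arrays, gave p = 0.016 for Apoe, where the smallest possible p was 0.0079. Adjusted over all 16935 probes, the exact permutation p of Apoe was 0.18, and 0 probes passed. For Apoa1 the exact permutation p was 0.10 and for Afp probe 19579 it was 0.040, with adjusted values of 0.28 and 0.19.

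Through the shared sources, passages could be set side by side for 1 preparation each, with no test. For Apoa1, NT1 at passage 14 minus passage 12 came to -0.02, and TBV at passage 13 minus passage 12 came to 0.64. In size the TBV value exceeded 89.9% of 14665 probes and the NT1 value 4.53%. Both values rest on the same 2 whole numbers in NT1p12 with TBVp13, 0 and -1. For Afp probe 19579 the NT1 passage difference was 0.38 and that of TBV was 0.04. Ttr and Lrp2 probes lay between -0.23 and 0.10 in both. Apoe had no value in 1 dye orientation of the linking pair and could not be placed.

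The members did not move as a group. Over the arrays, pairs of members correlated between -0.57 (Apoa1 with Lrp2) and 0.57 (Apoa1 with Ttr), over 12 or 13 arrays that share RNA and dyes. Apoa1 with Apoe, the apolipoproteins, stood at -0.53. In NT1p14 with TBVp13 the gene averages ran from -0.52 for Apoa1 to 0.29 for Afp, in NT1p12 with TBVp12 from -0.64 for Apoe to 0.14 for Apoa1, and in NT1 1 with TBV2 from -0.29 for Apoa1 to 0.32 for Afp. The Afp value in NT1p14 with TBVp13 was probe 19579 alone.

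The mean profile of the 5 genes was compared with that of 5857 other genes measured on all 13 arrays. The 5 most similar were Phf7 (r = 0.90), Eif3f (r = 0.89), Arhgap22 (r = 0.89), Wnt7a (r = 0.88) and Slc22a16 (r = 0.87). Eif3f encodes a subunit of translation initiation factor 3 and Wnt7a a secreted signalling protein. This likeness moved with the dyes: the member profile had a median of -0.0042 on the 7 arrays with NT1 in Cy5 and of -0.18 on the 6 with TBV in Cy5. For Eif3f the means in these orientations were 0.24 and -0.42, and for Phf7 they were 0.13 and -0.23. The part of the dyes in the likeness was not tested.

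Of 23 other genes, mostly for plasma proteins made by visceral endoderm or liver, 11 were measured in all 3 pairs. Of these, 0 were called in NT1 over TBV, 0 were above 0 in all 3 pairs and 1 was below, against 8.75% and 5.82% of all 7976 genes. Their median was 0.0063. The gene farthest below 0 was Spink1, which encodes a secreted trypsin inhibitor, at -0.53 ± 0.08 (SD, n = 3), with -0.55, -0.60 and -0.44 in the pairs. It stood at 0 in NT1p12 with TBVp13, and 4 of its 13 values were whole numbers. Farthest above was Fgg, the fibrinogen gamma chain, at 0.17 ± 0.28, with 0.50 in NT1p14 with TBVp13 and 0.01 and -0.0045 in the other pairs.

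The plasma protein genes lay mostly on opposite sides of 0 in the pairs with most arrays, an order noticed after the values were seen. In NT1p14 with TBVp13, 9 of 11 were below 0 with a median of -0.16, and in NT1p12 with TBVp12, 9 of 11 were above 0 with a median of 0.21. The medians of all genes in these pairs were 0.02 and 0.01. Counting also the genes that lacked a value in another pair, 10 of 12 were below 0 in NT1p14 with TBVp13 and 10 of 15 above 0 in NT1p12 with TBVp12. Among those added, Fgb, the fibrinogen beta chain, stood at -1.61 in NT1p12 with TBVp12, with 5 of its 8 values whole. On single arrays the list medians ran from -0.37 to 0.0060 in NT1p14 with TBVp13 and from 0.03 to 0.12 in NT1p12 with TBVp12. With both signs together, 8 of the 11 genes (72.7%) had this order, against 34.7% of all genes, and among the members Apoa1 and Ttr had this order. Fga, the fibrinogen alpha chain, stood at -0.44 and 0.37, and Apoc1, another apolipoprotein, at -0.36 and 0.22. Of the 11 probes of these genes tested between the pairs, 0 passed by limma. Apoe and Afp probe 19579 ran the other way. Afp probe 19676 was lower in NT1p14 with TBVp13 than in NT1p12 with TBVp12, with a difference of -0.42 that did not pass.

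**Figure D4:**
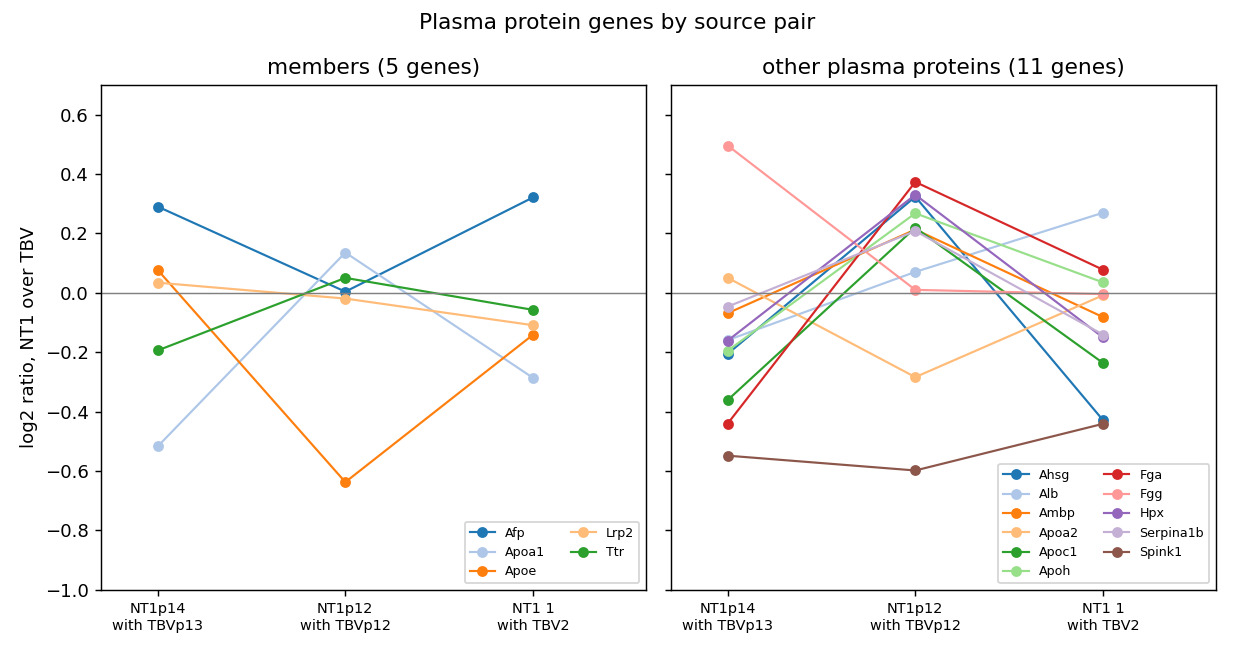
Log2 ratio of NT1 over TBV in the 3 independent source pairs, for the 5 members (left) and 11 other plasma protein genes (right). Each point is a gene, averaged over its probes where it has several, and lines only join the values of 1 gene. The Afp point in NT1p14 with TBVp13 is probe 19579 alone. On the right 9 of 11 genes lie below 0 in NT1p14 with TBVp13 and 9 of 11 above 0 in NT1p12 with TBVp12.

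For other genes of the uptake pathway only the medians lay on opposite sides of 0 in the pairs with most arrays. The median was 0.21 in NT1p14 with TBVp13, with 6 of 8 above 0 against 52.3% of all genes. In NT1p12 with TBVp12 it was -0.17, with 5 of 8 below 0 against 47.8%. Single genes were mixed: Fcgrt and Clcn5 were above 0 in both pairs, Lrpap1 was below 0 in both, and Ctsh had the reverse order. Of 17 endocytic receptor and uptake genes 8 were measured, 0 were called, 2 were above 0 in all 3 pairs and 0 below, and the median of their averages was 0.01. Clcn5, a chloride transporter of endosomes, stood at 0.25 ± 0.01 (SD, n = 3), but 10 of its 13 values were whole numbers. Fcgrt, the neonatal Fc receptor that carries antibody and albumin, stood at 0.11 ± 0.09. Lrpap1, the chaperone that helps Lrp2 fold, was farthest below at -0.13 ± 0.12. Amn, part of the cubilin receptor that works beside Lrp2, was at 0.50, -0.36 and -0.16 in the pairs, with 7 of its 11 values whole.

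Of 16 endoderm transcription factor and signalling genes 4 were measured, 0 were called and 0 had the same sign in all 3 pairs. Hnf4a, the nuclear receptor that drives many visceral endoderm and liver genes, averaged 0.00070 ± 0.094 (SD, n = 3), and Hhex, a homeobox gene of anterior endoderm, -0.07 ± 0.20. Sox17 stood at -0.02 and Foxa3 at -0.04. All 4 were above 0 in NT1p12 with TBVp12, between 0.0050 and 0.17, against 51.4% of all genes. In NT1p14 with TBVp13, 3 of 4 were below 0, against 46.3%. Single arrays differed: the list median ran from -0.23 to 0.28 in NT1p12 with TBVp12 and from -0.33 to 0.06 in NT1p14 with TBVp13.

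Markers of other cells were read beside the members. Of 13 parietal endoderm genes 6 were measured, with a median of 0.27 in NT1p14 with TBVp13, of -0.15 in NT1p12 with TBVp12 and of 0.02 in NT1 1 with TBV2. They ran on average from Lamc1 at -0.12 to Col4a1 at 0.17, and 2 of their 10 probes passed by limma as higher in NT1p14 with TBVp13 than in NT1p12 with TBVp12. In the same test 4 of 19 fibroblast probes and 1 of 13 pluripotency probes passed as higher and 1 of 7 neural probes as lower, against 2.95% of all probes higher and 1.99% lower. Many values of the genes called higher were whole numbers, counted over all probes of a gene. They were 13 of 13 for S100a4, 11 of 13 for Lin28a, 9 of 13 for Acta2 and 6 of 13 for Col3a1. Col1a1 had 17 of 26, Sparc 16 of 30 and Lamc1 14 of 37. Pax6, called lower, had 1 of 13. With 1 array left out at a time, the 836 calls of this test became between 0 and 2672. The 13 measured of 18 fibroblast genes had medians of 0.46, -0.36 and -0.56, with the pairs in the order used for parietal endoderm. Their averages ran from Col5a2 at -0.39 to Fn1 at 0.13. The 13 measured of 18 pluripotency genes had -0.06, -0.52 and -0.03, with 6 below 0 in all 3 pairs, and averages from Zfp42 at -0.78 to Dnmt3l at 0.89, where 11 and 13 of 13 values were whole. Macrophages make Apoe too, and 6 of 10 of their genes were measured, with medians of 0.15, 0.06 and 0.18, from Fcer1g at -0.10 to Tyrobp at 0.40. The 4 measured of 9 neural genes had -0.24, -0.19 and -0.04, from Stmn2 at -0.39 to Nes at 0.08. Apoe was lower in NT1p12 with TBVp12 than in NT1p14 with TBVp13. So were the medians of the fibroblast, pluripotency, parietal endoderm, macrophage and uptake genes. The medians of the other plasma protein, endoderm transcription factor and signalling, and neural genes were higher there. The part of any of these cells in the Apoe ratio was not tested.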

How the data were processed

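The 13 two-colour arrays were analysed from 1 table of log2 ratios deposited by the authors. Its log base, numerator and normalisation are not given in the sources used here. They were taken as log2 of Cy5 over Cy3, and 19.3% of the values were whole numbers without decimals. Probes were named by the platform annotation: 11723 had 1 symbol, and the 806 with several and the 7676 with none stayed unnamed.

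Each array was centred on its median, and for each source pair the mean of each dye orientation was turned to NT1 over TBV and the orientations were averaged. NT1p12 with TBVp13 has both its RNAs in common with other pairs and was kept out of the main test, leaving n = 3. These 3 pairs are called independent because they share no source name. Whether they came from separate cultures is not stated. All 15973 probes with values in these pairs were tested with lmFit and eBayes (limma 3.58.1, R 4.3.3), Benjamini-Hochberg adjusted. The comparison between 2 pairs used their 9 arrays, with at least 2 values per pair. Both fits were tested on simulated data. Figures used matplotlib 3.10.9. Arrays are numbered in accession order. The number of arrays limits the precision. P-values of the main test measure the spread among the 3 source pairs. In the comparison between 2 pairs, limma and permutation p-values measure the spread among arrays of the same RNA pair, not among preparations.

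The members and gene lists were chosen with earlier results of these data known. The named genes were all member probes, the gene farthest above and below 0 of each other list, and the 5 genes most like the member profile. Further genes of those lists, named as examples, were chosen after their values were seen. Alternatives covered the replicate unit, dyes, centring, scaling, missing values, variance, left-out pairs and arrays, and pairs with their signs turned.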

Additional observations from a re-analysis of the deposited data

Results flagged for a closer look

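Of 14 groups of 4 or 5 arrays of the member probes, only 1 held an array that stood apart from the rest of its group. Afp probe 19579 read 0.22 on array 1 of NT1p12 with TBVp12, against -0.15 to -0.10 on the other 3 arrays. Chance flags about 1 group in 20, and the groups share arrays.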

How the results depend on the processing

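The count of 0 probes past the threshold in NT1 over TBV was the same in 26 of 28 alternatives. These 28 include turning the signs of 1 pair at a time, which is not another processing of the same ratios. With NT1p12 with TBVp12 turned, 1972 of 15973 probes had an unadjusted p under 0.05 (limma), against 164 in the main test. With 13 arrays and a dye term, the count past the threshold was 9 with arrays as independent and 1 with the source pair as a random block. Leaving out whole numbers was chosen after seeing the data. No member passed in any of them. Signs that differed from the main result are these. Lrp2 probe 760 stood at -0.018 with 4 pairs, -0.010 with independent arrays, -0.013 with the block, -0.012 with TBV in Cy5 only and -0.031 after averaging probes, and between -0.025 and 0.027 with a pair or array left out. Lrp2 probe 807 stood at 0.10 with TBV in Cy5 only, Apoa1 at 0.058 with NT1 in Cy5 only. With a pair or array left out, Ttr probe 2234 ran from -0.11 to 0.054 and Lrp2 probe 807 from -0.12 to 0.021. When only NT1p14 with TBVp13 had its signs turned, Afp probe 19579 stood at -0.0014, Apoa1 at 0.12, Ttr at 0.057 and 0.067 and Lrp2 probe 760 at -0.0087. With NT1p12 with TBVp12 turned, Apoe stood at 0.19. With NT1 1 with TBV2 turned, Afp probe 19579 stood at -0.026 and Lrp2 at -0.010 and 0.093. Between pairs, the 836 probes became 167 without a dye term and 2704 with values on all 9 arrays, and with an array left out ran from 0 to 2672. Lrp2 probe 807 then ran from -0.043 to 0.22. The cause was not tested. NT1 and TBV shared each array, so every ratio is paired. The labels give no replicate numbers, so arrays could not be matched between source pairs. The array numbers used here follow accession order.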
